A study of Mus musculus with 8 samples.

Results

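The genes described here are 10 components of the N6-methyladenosine (m6A) machinery or of the Meioc-Ythdc2 switch of meiotic entry. They were studied in early meiotic cells of mice with and without Bend2, which encodes a BEN domain protein. They were chosen by name: Meioc and Ythdc2; the writer genes Mettl3, Mettl14 and Wtap; the reader genes Ythdc1, Ythdf1, Ythdf2 and Ythdf3; and the eraser gene Alkbh5. All 10 were found among the 27632 reference genes that the files name. Leptotene and zygotene spermatocytes had been sorted by flow cytometry from 2-month C57BL/6 mice, and total RNA was sequenced. The 4 groups were Bend2 WT leptotene, Bend2 KO leptotene, Bend2 WT zygotene and Bend2 KO zygotene cells, with 2 libraries in each, called replicates 1 and 2. The labels name no other allele or treatment, and they do not describe how the KO allele was made. They do not say whether 2 libraries of a group came from different animals, and the p-values below therefore rest on a spread between libraries that can be technical.

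m6A is the most common internal modification of messenger RNA. A complex built on METTL3, the catalytic subunit, and METTL14, which holds the RNA, adds it with the help of WTAP, and ALKBH5 can take it off. Proteins with a YTH domain bind the mark: YTHDC1 in the nucleus, where it acts on splicing and export, and the YTHDF proteins in the cytoplasm, where YTHDF2 in particular speeds the decay of bound RNA. YTHDC2, an RNA helicase with a YTH domain, works with MEIOC in germ cells that leave the mitotic cycle, and mice that lack either gene enter meiosis but fail to progress. Loss of Alkbh5, Mettl3 or Mettl14 in the male germ line is also known to disturb spermatogenesis.

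The deposited files give the TPM (a level per length, as a part of the library's total) of each transcript assembled in each library. A gene's level by named transcripts is the sum over the transcripts that carry its reference name, after scaling between libraries. The assembler left many transcripts of these genes without a name, so a second measure, added after the data had been seen, is used beside it: the mean coverage of the gene's coding bases by all assembled transcripts of its strand, in the same units. The libraries held between 6.82 and 9.45 aligned gigabases, as their files imply. In 1 library of each group between 22.3% and 24.0% of the TPM lay in unannotated single-exon transcripts (WT replicate 2 and KO replicate 1 at both stages), against 9.90% to 14.4% in the other 4. The replicates of a group differed by over 2-fold for 6 of 40 gene and group pairs by named transcripts and for 1 of 40 by coverage.

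All 16 markers of leptotene and zygotene cells were present, with summed scaled TPM between 532 and 1178 over the 8 libraries. That list covers both stages and cannot tell them apart, and the stage is taken from the labels. The 12 markers of pachytene cells and spermatids, later stages than the labelled ones, summed to between 4830 and 9638 in WT, above the leptotene and zygotene sum in each WT group, and between 573 and 1475 in KO, and 11 of them were called lower in KO averaged over the stages (limma, adjusted p under 0.05). The 11 spermatogonial markers summed to between 100.4 and 189.8 in WT and between 311 and 425 in KO, with 6 called higher. Over all genes, averaged over the stages, 7.88% were called in either direction by named transcripts and 1.61% higher. By coverage 14.7% of all genes were called lower and 8.18% higher. The 6 macrophage markers summed to at least 91.3 in WT and at most 26.6 in KO. The 6 peritubular and stromal markers summed to between 221 and 748 in WT and between 12.7 and 448 in KO. These sums were lower in KO than in WT at each stage. At leptotene they were 12.7 to 21.04 in KO against 221 to 468 in WT. At zygotene they were 87.6 to 448 in KO against 518 to 748 in WT. With the stages pooled, the genotypes overlapped in the sums of 6 Sertoli markers (89.6 to 215.8 in WT, 90.5 to 162.8 in KO), of 4 Leydig markers (25.7 to 142.1 and 69.2 to 160.6), of 3 endothelial markers (4.71 to 35.4 and 0.836 to 33.9) and of 4 erythroid markers (99.9 to 2677 and 2.83 to 2116). Within a stage, KO was below WT for Sertoli markers at zygotene (90.5 to 111.8 against 114.6 to 215.8). It was also lower for endothelial markers at leptotene (0.836 to 1.15 against 4.71 to 12.6). The other sums of these 4 kinds overlapped at each stage. None of these markers was at 0 in all 8 libraries. Their part in the results below was not tested, and in bulk RNA a change in the share of a cell type cannot be told apart from a change in RNA per cell. No gene in the files carries the symbol Bend2. For the X-linked gene Gm15262, singled out after its values were seen, the coverage of exons 12 and 13 over that of exons 11 and 14 was between 0.455 and 1.45 in the 4 WT libraries and between 0 and 0.182 in the 4 KO libraries.

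The 10 genes differed in level by over an order of magnitude. By coverage, Alkbh5 had the highest mean over the 8 libraries, at 97.7 scaled TPM. Then came Ythdf1 at 42.2, Meioc at 41.9, Ythdf2 at 32.0, Ythdc1 at 27.3, Ythdc2 at 26.7, Ythdf3 at 25.8, Wtap at 19.4, Mettl3 at 13.2 and Mettl14 at 7.96. The writer genes held the lowest 3 places. These means pool the genotypes: in WT alone Meioc (35.7) came before Ythdf1 (32.2), and in KO alone Ythdf3 (29.3) and Ythdc2 (28.0) came before Ythdc1 (26.5). Neighbours in this order overlapped between libraries except in 3 places: the lowest Alkbh5 library (63.2) was above the highest Ythdf1 library (60.5), Wtap (15.4 to 24.7) stayed above Mettl3 (12.2 to 15.2), and Mettl3 above Mettl14 (5.04 to 10.03). Named transcripts gave lower means, between 30.9 for Alkbh5 and 4.83 for Mettl14.

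**Figure D1:**
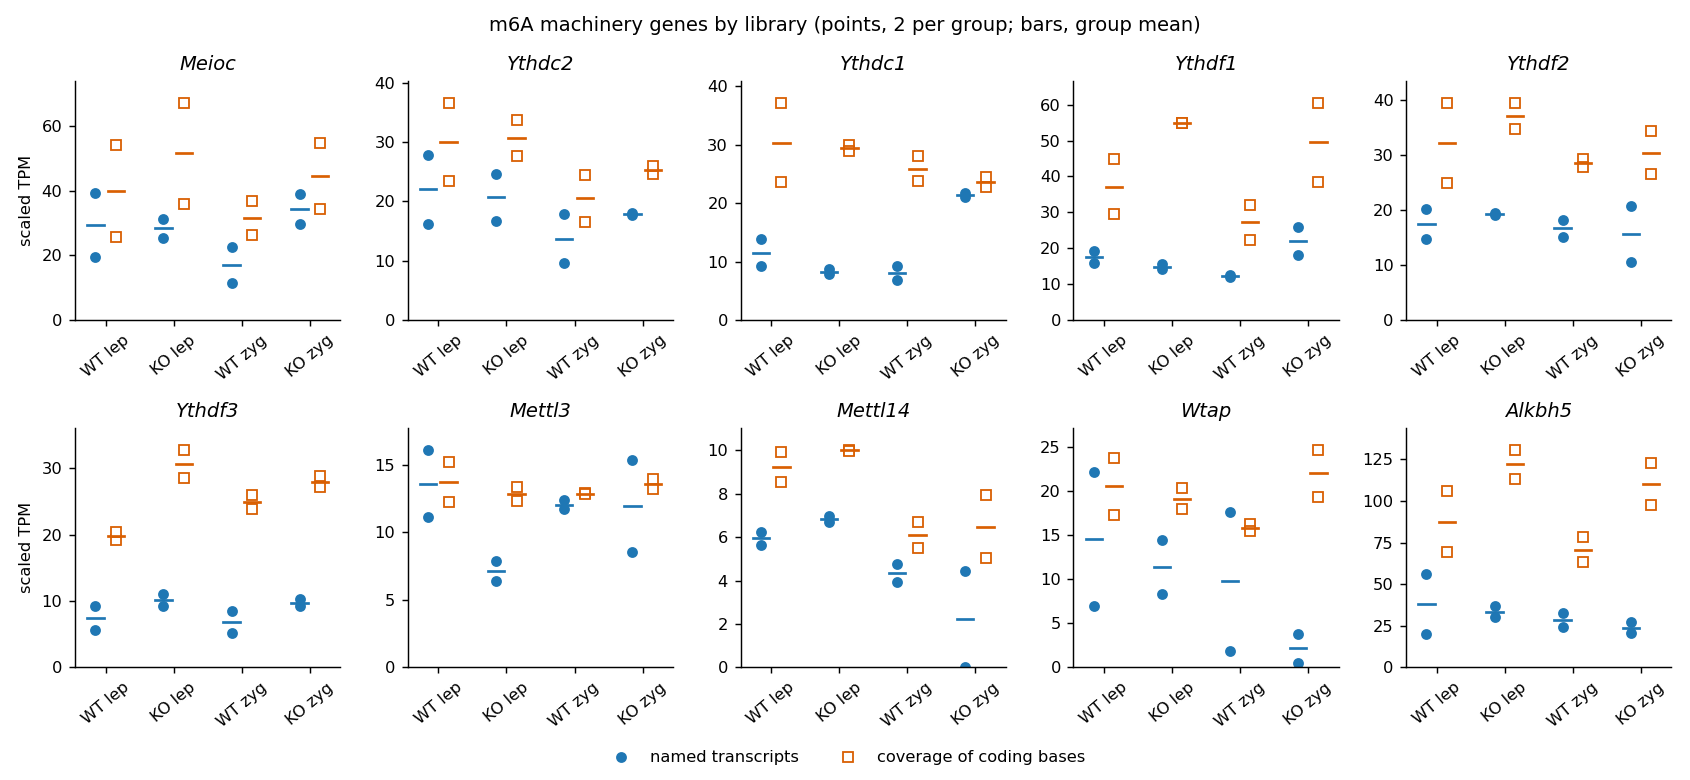
Each panel plots 1 gene in scaled TPM, with a point for each library (2 per group) and a bar for the group mean; filled circles are named transcripts and open squares coverage of coding bases. The squares of Ythdf1, Ythdf3 and Alkbh5 sit higher in KO than in WT at each stage. Wtap and Mettl14 fall to or near 0 in at least 1 zygotene library each by named transcripts but not by coverage.

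In cells without Bend2, only Ythdf1 of these genes passed the test against WT, as a rise by coverage averaged over the stages. That call held in 6 of 16 settings tried with coverage. By named transcripts, 0 of the 10 were called in KO against WT leptotene cells (limma, Benjamini-Hochberg adjusted p under 0.05 over 16951 genes), where 1.12% of all genes were called. At zygotene 0 of 10 were called, against 1.31% of all genes, and averaged over the stages 0 of 10, against 7.88%. At an unadjusted p under 0.05 the counts were 0, 2 and 0, beside 17.4%, 16.2% and 25.6% of all genes, and limma-voom, run on read numbers worked out from coverage, also called 0 in each of these comparisons. By coverage, 0 of 10 were called at leptotene (7.28% of 20914 genes), 0 at zygotene (5.17%) and 1, Ythdf1, averaged over the stages (22.9% of all genes in either direction, 8.18% higher). At an unadjusted p under 0.05 coverage gave 1 gene, Ythdf3, at leptotene (26.2% of all genes), 2 genes, Ythdf1 and Alkbh5, at zygotene (24.4%), and these 3 averaged over the stages (37.3%). The median log2 fold change of the 10 genes averaged over the stages was 0.09 by named transcripts, beside -0.12 over all genes, and 0.18 by coverage, beside -0.08. All fold changes here are on the scale of log2(scaled TPM + 1), which understates the change of low genes.

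**Figure D2:**
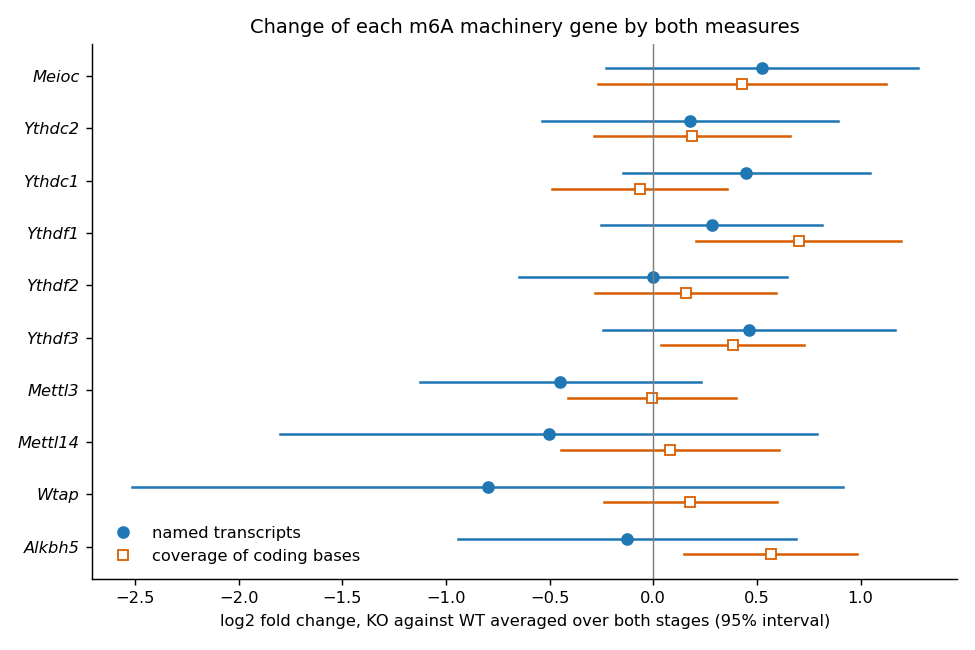
The log2 fold change of KO against WT, averaged over the stages, is drawn for each gene with its 95% interval, as circles for named transcripts and squares for coverage of coding bases. By coverage the intervals of Ythdf1, Ythdf3 and Alkbh5 lie above 0, and only Ythdf1 had an adjusted p under 0.05; by named transcripts all 10 intervals reach 0.

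Meioc (chr11:102663716-102682237, GRCm38, plus strand) encodes the meiosis-specific partner of YTHDC2. Its named transcripts gave 39.3 and 19.4 scaled TPM in WT leptotene, 25.3 and 31.4 in the KO leptotene pair, 22.5 and 11.6 in the WT zygotene pair, and 29.7 and 39.0 in the KO zygotene pair. Both KO zygotene libraries were above both WT zygotene libraries, and at leptotene the groups overlapped. The difference was 1.03 ± 0.45 (log2 fold change ± SE) at zygotene, with an adjusted p of 0.326, and 0.03 ± 0.45 at leptotene. By coverage Meioc was at 54.1 and 25.7 in the WT leptotene pair, 35.9 and 67.2 in the KO leptotene pair, 36.7 and 26.3 in the WT zygotene pair, and 34.4 and 54.7 in the KO zygotene pair. The genotypes overlapped at both stages by that measure, and the zygotene difference was 0.47 ± 0.43 (adjusted p = 0.550). The 95% interval of the averaged difference by coverage ran from -0.27 to 1.12, so a rise of up to 1.12 on the log2 scale lies within it.

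Ythdc2, the helicase of the pair, lies on chromosome 18 and is known to bind transcripts of the mitotic cycle. Its named transcripts summed to 27.9 and 16.2 in the WT leptotene pair, 16.7 and 24.6 in the KO leptotene pair, 17.9 and 9.55 in the WT zygotene pair, and 17.7 and 18.0 in the KO zygotene pair. The genotypes overlapped at both stages by that measure. The averaged difference of KO from WT was 0.18 ± 0.30 by named transcripts (adjusted p = 0.772) and 0.19 ± 0.21 by coverage (adjusted p = 0.554). Coverage of Ythdc2 ran from 16.6 in the WT zygotene library of replicate 2 to 36.6 in the WT leptotene library of replicate 1, so the spread within WT, with the stages pooled, covered all 4 KO libraries (24.7 to 33.8). Within zygotene, both KO libraries were above both WT libraries by coverage, as for 6 of the 10 genes.

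The ratio of Meioc to Ythdc2 within a library does not depend on the scaling between libraries. As log2 of the named transcripts it was 0.50, 0.26, 0.33 and 0.28 in WT, and 0.60, 0.35, 0.75 and 1.11 in KO. The KO mean was 0.70 ± 0.32 (SD, n = 4) and the WT mean 0.34 ± 0.11, and the 2 sets overlapped. By exact permutation of the 4 and 4 libraries, two-sided, p was 0.0571, or 0.381 adjusted over the 8 tests of ratios. By coverage the difference was 0.25 (exact permutation p = 0.286). The test takes the libraries of both stages as independent, which the labels do not show. With the stages of a genotype and replicate number averaged first, the smallest two-sided exact p that 2 against 2 can give is 0.333, and no test of a ratio between the genotypes can pass.

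The promoter of Meioc is shown because it was the only one among these genes to hold TTTCCCGC, a motif of the E2F family. RefSeq promoters (GRCm38.p6, 250 bases before to 50 after the start) were matched for 7 of the 10 genes. The 250 bases before the RefSeq start of Meioc, a start that lies inside the gene as GENCODE draws it, were chr11:102665335-102665584 on the plus strand, with the reverse complement of the motif in capitals:
Meioc: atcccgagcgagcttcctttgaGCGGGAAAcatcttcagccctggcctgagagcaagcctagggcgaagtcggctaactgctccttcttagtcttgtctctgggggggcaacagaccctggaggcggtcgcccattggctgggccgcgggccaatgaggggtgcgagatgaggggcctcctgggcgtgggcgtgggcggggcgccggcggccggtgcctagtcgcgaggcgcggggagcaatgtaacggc
The match begins 228 bases before the start. Of 27025 mouse promoters of this length 1.11% hold TTTCCCGC on either strand. The same window of Meioc also holds CCAAT, the NF-Y box, which 37.9% of promoters hold, GGGCGG, an Sp1 box (35.9%), and the MYB-type motifs TAACGG (2.68%) and TAACTG (10.1%). A match is a description of the letters and not of binding.

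Among the readers, Ythdf1 (chr2:180904377-180920949, minus strand) was the 1 gene of the 10 called higher in KO by coverage. It encodes a cytoplasmic reader linked to translation. Coverage of its coding bases was 44.8 and 29.6 scaled TPM in WT leptotene, 54.8 and 54.8 in the KO leptotene pair, 32.1 and 22.4 in the WT zygotene pair, and 38.6 and 60.5 in the KO zygotene pair. Both KO libraries were above both WT libraries at each stage, as for 15.1% of all genes, while KO zygotene replicate 1 was below WT leptotene replicate 1. The mean was 52.2 ± 9.46 in KO and 32.2 ± 9.33 in WT (SD, n = 4). Averaged over the stages the log2 fold change was 0.70 ± 0.22 (SE), with an adjusted p of 0.049 in limma, and it was 0.58 ± 0.31 at leptotene (adjusted p = 0.273) and 0.82 ± 0.31 at zygotene (adjusted p = 0.150).

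The call of Ythdf1 rested on small margins. It was lost when WT leptotene replicate 2, KO leptotene replicate 1, KO leptotene replicate 2, WT zygotene replicate 1, WT zygotene replicate 2 or KO zygotene replicate 2 was left out. The fold change without 1 library lay between 0.54 and 0.86 and the adjusted p between 0.0351 and 0.162. A covariate for the share of unannotated single-exon transcripts brought the adjusted p to 0.00527, and leaving the scaling out brought it to 0.192. With the 2 stages of a genotype and replicate number averaged first, which leaves 2 KO against 2 WT values, it was 0.126. The sign stayed positive in all 16 settings tried with coverage. By named transcripts Ythdf1 was at 19.2 and 15.8 in the WT leptotene pair, 15.7 and 14.2 in the KO leptotene pair, 12.5 and 12 in the WT zygotene pair, and 18.1 and 26.1 in the KO zygotene pair. KO was thus below WT at leptotene and above it at zygotene by that measure, with an averaged fold change of 0.28 ± 0.23 (adjusted p = 0.484). In the KO leptotene libraries 60.9% and 61.3% of the TPM of the locus was in transcripts without a name, against 38.0% and 31.5% in WT leptotene. At zygotene it was 34.4% and 35.4% in KO, and 49.7% and 40.4% in WT. The rise in spermatogonial markers and the fall in pachytene and spermatid markers given above ran with the same 4 KO libraries, and their part in the result was not tested.

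Ythdf3, a close paralogue of Ythdf1 (chr3:16183212-16217037, plus strand), was the only 1 of the 10 genes with all 4 KO libraries above all 4 WT libraries, and by coverage alone, a pattern that 11.5% of all 20914 genes shared. Its coverage was 19.2 and 20.4 in the WT leptotene pair, 28.5 and 32.8 in the KO leptotene pair, 25.9 and 23.8 in the WT zygotene pair, and 28.8 and 27.1 in the KO zygotene pair. The averaged log2 fold change of 0.38 ± 0.15 did not pass the test (adjusted p = 0.101). It was 0.60 ± 0.21 at leptotene (adjusted p = 0.116) and 0.16 ± 0.21 at zygotene (adjusted p = 0.686). Named transcripts of Ythdf3 held less than these values, between 5.15 and 11.1, and between 44.7% and 74.9% of the locus was unnamed.

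Ythdf2, the reader best known for RNA decay (chr4:132184912-132212303, minus strand), was not called either. Coverage was 39.5 and 24.8 in the WT leptotene pair, 39.5 and 34.8 in the KO leptotene pair, 29.2 and 27.8 in the WT zygotene pair, and 26.5 and 34.3 in the KO zygotene pair. The genotypes overlapped at both stages, and the averaged difference was 0.16 ± 0.19 by coverage (adjusted p = 0.589) and 0.00 ± 0.27 by named transcripts. As a share of the summed coverage of the 3 YTHDF genes, Ythdf2 held 38.1%, 33.2%, 33.5% and 37.6% in WT, and in KO its share was 32.1%, 28.4%, 28.2% and 28.1%. Every KO share was below every WT share. The means were 29.2% ± 1.94 in KO and 35.6% ± 2.62 in WT (SD, n = 4), and the two-sided exact permutation p of 0.0286, or 0.114 after adjustment over the 8 tests, is as small as 70 arrangements can give. By named transcripts the share was 37.8% ± 7.63 in KO and 43.8% ± 4.61 in WT (SD, n = 4, exact permutation p = 0.200), with KO leptotene at 43.9% and 43.0% inside the range of WT. With unnamed transcripts of the locus added it was 27.6% ± 1.15 in KO and 29.5% ± 3.11 in WT (exact permutation p = 0.343), and the libraries overlapped. The share is computed from the Ythdf1 and Ythdf3 values given above as well, so a lower share is not a separate fall of Ythdf2.

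**Figure D3:**
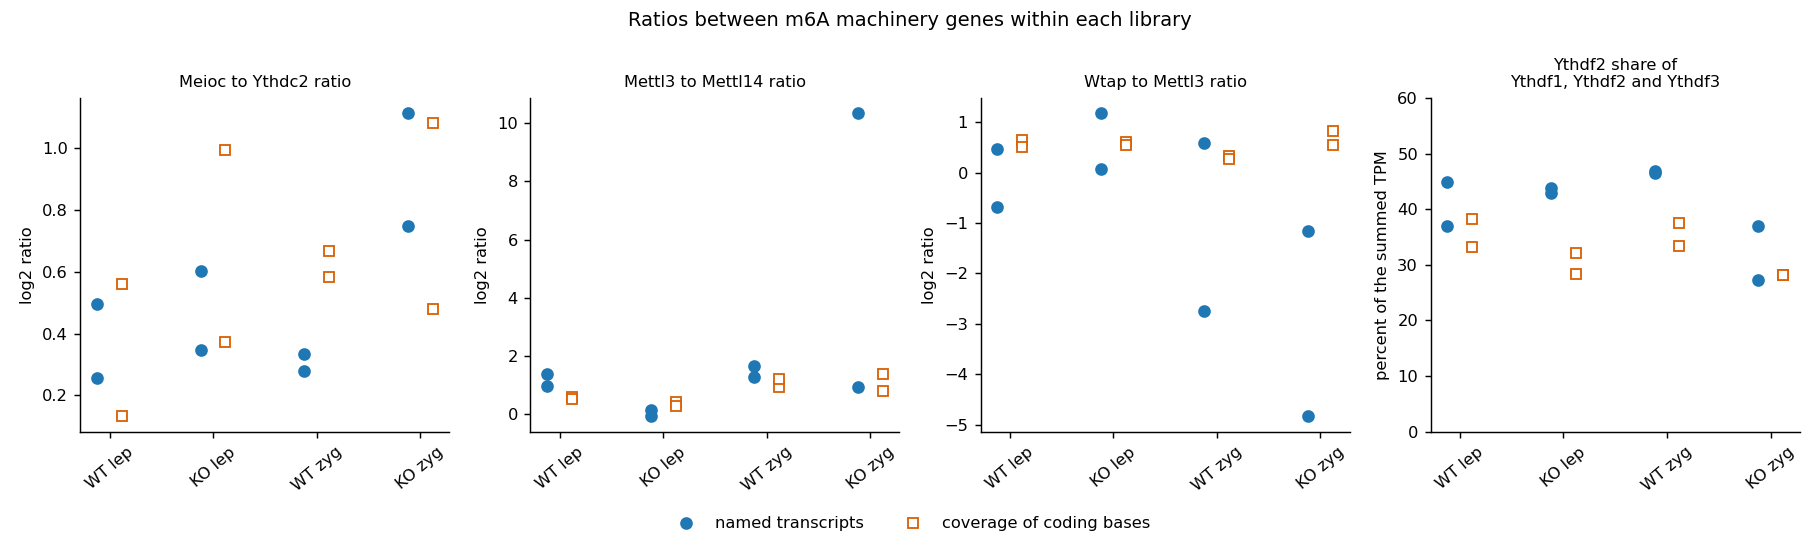
Each panel plots a ratio or share of genes within each library by group (points, 2 libraries per group), with circles for named transcripts and squares for coverage of coding bases. The Ythdf2 share by coverage is lower in all 4 KO libraries than in all 4 WT libraries, and the 1 circle at a log2 Mettl3 to Mettl14 ratio of 10.3 is KO zygotene replicate 1.

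Ythdc1, the nuclear reader (chr5:86804221-86836659, plus strand), gave different pictures by the 2 measures. Named transcripts were at 13.9 and 9.24 in the WT leptotene pair, 8.72 and 7.83 in the KO leptotene pair, 9.27 and 6.89 in the WT zygotene pair, and 20.98 and 21.7 in the KO zygotene pair. The KO zygotene libraries were above the other 6, with a difference from WT zygotene of 1.31 ± 0.36 (adjusted p = 0.129). The share of all genes with that pattern was not computed. Coverage of Ythdc1 was 28.1 and 23.7 in the WT zygotene pair and 24.5 and 22.8 in the KO zygotene pair, a difference of -0.12 ± 0.26 (adjusted p = 0.825). In the 6 other libraries between 56.8% and 77.8% of the TPM of the Ythdc1 locus was in unnamed transcripts, and in KO zygotene 29.8% and 11.8% was. The unnamed share is computed from the same named transcripts, and its part in the difference was not tested.

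The eraser gene Alkbh5 (chr11:60536381-60558512, plus strand) encodes an RNA demethylase known to be needed for male fertility. By coverage it was at 106 and 69.4 in the WT leptotene pair, 113 and 131 in the KO leptotene pair, 78.4 and 63.2 in the WT zygotene pair, and 97.5 and 123 in the KO zygotene pair. Both KO libraries were above both WT libraries at each stage, as for 15.1% of all genes, and KO zygotene replicate 1 was below WT leptotene replicate 1. The mean of Alkbh5 was 116 ± 14.3 in KO and 79.2 ± 18.8 in WT (SD, n = 4). Its averaged log2 fold change of 0.57 ± 0.18 missed the threshold (adjusted p = 0.056). It passed in 3 of 16 settings: with WT leptotene replicate 1 left out (0.72, adjusted p = 0.0286), with the covariate for single-exon transcripts (adjusted p = 0.00723) and among genes with a TPM of at least 5 (adjusted p = 0.0494). It did not pass in the others, with a limma adjusted p of 0.274 unscaled and 0.155 with the stages averaged first. By named transcripts, which for this gene are the 1 reference transcript, the values of 56.3 and 19.8 in the WT leptotene pair, 29.9 and 36.6 in the KO leptotene pair, 32.8 and 23.9 in the WT zygotene pair, and 20.5 and 27.1 in the KO zygotene pair gave an averaged difference of -0.13 ± 0.35 (adjusted p = 0.864). Between 47.5% and 60.02% of the TPM of the Alkbh5 locus was unnamed in KO, and between 0% and 49.8% in WT.

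Of the 7 genes with a matched promoter, Ythdf1 and Alkbh5 alone held CNCCTCAG, the motif reported for STRA8, the transcription factor of meiotic entry. No promoter was matched for Ythdc2, Ythdf3 and Mettl14, and the motif was chosen after values were seen. The 30 bases around each match are shown with the match in capitals. That of Ythdf1 is chr2:180920887-180920916, read on the minus strand, with the match 36 bases after the start. That of Alkbh5 is chr11:60537703-60537732 on the plus strand, where the match is the reverse complement and lies 38 bases after the RefSeq start:
Ythdf1: cattggagtcggcgcCCCCTCAGcctgtcc
Alkbh5: gatttgtgcgctggaagCTGAGGCGtctgc
The motif is in 7.97% of the 27025 promoters on either strand. Of the 1143 tested genes whose promoter holds it, 8.66% were called higher in KO by coverage with a median log2 fold change of -0.12, beside 9.62% and -0.07 for the 12249 tested genes with a promoter. Of 11 motifs searched on both strands, CCAAT was in Alkbh5, Meioc, Wtap and Ythdf1, and GGGCGG in 6 of the 7 promoters. TTTGGCGC (0.537% of promoters), TGACGTCA (1.88%), AACTGCCA (1.36%), TGACGCA (2.19%) and CAGTTG (13.6%) were in none of the 7. Some of these motifs share letters: TAACTG reads CAGTTA on the other strand, which differs from CAGTTG in the last base only.

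No writer gene was called between the genotypes by either measure. Mettl3 (chr14:52294841-52305128, minus strand) varied least of the 10 by coverage, with 15.2 and 12.2 in the WT leptotene pair, 13.4 and 12.3 in the KO leptotene pair, 12.9 and 12.8 in the WT zygotene pair, and 13.2 and 13.9 in the KO zygotene pair. Its averaged difference was -0.01 ± 0.18, with a 95% interval from -0.41 to 0.40. Its named transcripts, between 6.37 and 16.1, gave -0.45 ± 0.29 (adjusted p = 0.378). By that measure both KO leptotene libraries (6.37 and 7.84) were below both WT leptotene libraries (16.1 and 11.1), as for 3 of the 10 genes. From 0% to 63.8% of the Mettl3 locus was unnamed, with the highest share in KO leptotene replicate 1.

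Mettl14 (chr3:123368297-123386108, minus strand) lay lower at zygotene than at leptotene in every library by coverage and by named transcripts, without passing the test. Coverage was 9.94 and 8.53 in the WT leptotene pair and 10.03 and 9.98 in the KO leptotene pair, and 6.70 and 5.51 in the WT zygotene pair and 5.04 and 7.94 in the KO zygotene pair. All 4 zygotene libraries were below all 4 leptotene libraries, by coverage and by named transcripts, as for 0.899% and 0.855% of all genes, and Mettl14 was the only gene of the 10 for which that held. With unnamed transcripts added, by locus or by exonic overlap, the stages overlapped for all 10 genes, Mettl14 among them. The difference of zygotene from leptotene was -0.53 ± 0.32 in WT (adjusted p = 0.994) and -0.58 ± 0.32 in KO (adjusted p = 1.0), and did not pass the test. The log2 ratio of Mettl3 to Mettl14 by coverage was 0.61, 0.52, 0.41 and 0.30 at leptotene (WT, then KO) and 0.95, 1.22, 1.38 and 0.81 at zygotene. The zygotene mean was 1.09 ± 0.26 and the leptotene mean 0.46 ± 0.13 (SD, n = 4), with an exact permutation p of 0.0286, or 0.114 adjusted over the 8 tests. With the stages taken as 4 pairs the exact p was 0.125, the smallest that 4 pairs allow. By named transcripts the same difference was 2.95 (exact permutation p = 0.143) and includes KO zygotene replicate 1, where Mettl14 was at 0.0118 and 99.8% of its locus was unnamed.

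Wtap (chr17:12966796-12994169, minus strand), which anchors the writer pair at nuclear speckles, differed most between its libraries by named transcripts after Mettl14. Its named transcripts were at 22.2 and 6.90 in the WT leptotene pair, 14.5 and 8.27 in the KO leptotene pair, 17.7 and 1.84 in the WT zygotene pair, and 0.537 and 3.81 in the KO zygotene pair. Coverage of the same coding bases was 23.8 and 17.3, 20.3 and 18.0, 16.3 and 15.4, and 19.4 and 24.7 in the same order. The named values ranged over 41.4-fold and the coverage over 1.60-fold. The difference of KO from WT zygotene was -1.42 ± 1.03 by named transcripts (adjusted p = 0.563) and 0.44 ± 0.26 by coverage (adjusted p = 0.337). The 2 libraries with the lowest named values, WT zygotene replicate 2 and KO zygotene replicate 1, held 1 named Wtap transcript each, and the other 6 held 5 or 6.

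In those 2 libraries the assembled coverage of Wtap broke at the third of its coding segments, exon 4 of 8 of the transcript Wtap-203. Coverage of this exon was 1.71 in the WT zygotene library of replicate 2 and 1.97 in the KO zygotene library of replicate 1, and between 10.7 and 28.0 in the others. The next segment was back at 23.8 and 29.7. The exon has 59 bases at chr17:12981750-12981808 (GRCm38, minus strand) and is shown because the coverage broke there:
Wtap exon: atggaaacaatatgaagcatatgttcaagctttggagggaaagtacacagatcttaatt
The libraries with low coverage there are 1 WT and 1 KO library. Both have the high share of unannotated single-exon transcripts given above, as do WT leptotene replicate 2 and KO leptotene replicate 1, whose coverage of this exon was 14.9 and 19.1.

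**Figure D4:**
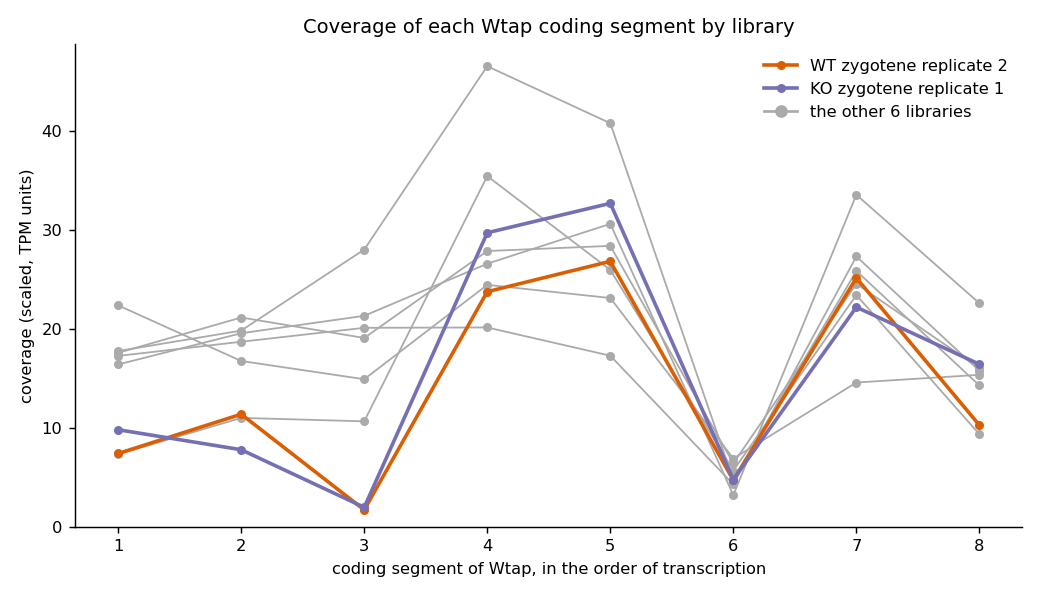
Coverage of each of the 8 coding segments of Wtap, in the order of transcription, is drawn as a line for each library in scaled TPM units. WT zygotene replicate 2 and KO zygotene replicate 1 drop below 2 at the third segment while the other 6 libraries stay between 10.7 and 28.0.

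Between the stages, the comparison of zygotene with leptotene asks how these genes move as homologues begin to pair. None of the 10 was called in WT, where 0% of genes were called by named transcripts and 0.00478% by coverage, nor in KO (0.0118% and 0.0143%). The interaction of genotype and stage in limma called none either (0.0118% and 0.00956% of all genes). At an unadjusted p under 0.05, 0 of the 10 passed in WT, 1 in KO and 1 in the interaction by named transcripts, beside 5.19%, 5.34% and 4.24% of all genes, and 0 passed in each by coverage, beside 4.31%, 5.18% and 2.45%. That gene was Ythdc1, with a difference of 1.27 ± 0.36 in KO (adjusted p = 0.641) and an interaction of 1.72 ± 0.51 (adjusted p = 0.857). By coverage its interaction was -0.11 ± 0.37. In WT the difference of Meioc between the stages was -0.74 ± 0.45 by named transcripts and -0.26 ± 0.43 by coverage, and that of Ythdc2 -0.66 ± 0.43 and -0.52 ± 0.29. The comparisons of KO with WT and of the stages share libraries, so their values are not independent of each other.

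Most of the level of Meioc was in Meioc-201 (4573 bases), with a mean of 76.98% of the TPM of the locus and a range over libraries from 52.4% to 95.9%. The other leading coding transcripts were Ythdc2-201 with a mean of 68.1%, Ythdf2-203 with 62.0%, Alkbh5-201 with 59.9%, Ythdf1-201 with 54.5%, Mettl3-201 with 51.1%, Mettl14-201 with 43.3%, Ythdf3-201 with 27.0% and Wtap-203 with 19.4%. For Ythdc1 no named transcript held over 27.8% in any library, and the named one with the highest mean, Ythdc1-207 with 11.5%, is annotated as a retained intron. The share of the leading transcript passed the test between the genotypes for none of the 10 genes (two-sided exact permutation tests of 4 against 4 libraries, smallest p = 0.0857, smallest adjusted p = 0.457). That smallest p was for Alkbh5-201, at 46.3% ± 6.15 in KO and 73.5% ± 21.9 in WT (SD, n = 4).

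A wider list of 33 genes covers other writer subunits and RNA methyltransferases, Fto, other RNA-binding proteins linked to m6A, partners and targets of Meioc and Ythdc2, the supply of S-adenosylmethionine, and deadenylation. By named transcripts 1 of the 33 was called in KO averaged over the stages, 0 at leptotene and 0 at zygotene, with 11, 3 and 9 at an unadjusted p under 0.05, where 25.6%, 17.4% and 16.2% of all genes passed. By coverage 7 were called averaged over the stages, 6 higher and 1 lower, with 2 higher at leptotene and 3 higher at zygotene. Their median log2 fold change by coverage was 0.25, beside -0.08 over all genes. Over all genes, 1.61% were called higher averaged over the stages by named transcripts, and by coverage 8.18% were called higher and 14.7% lower, with 1.56% higher at leptotene and 1.42% at zygotene.

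In the group of partners, targets and meiotic entry genes, Ccna2 and Stra8 rose, 2 of 6, where 8.18% of all genes were called higher by coverage. Ccna2 encodes cyclin A2, whose transcript MEIOC and YTHDC2 are known to hold down. Its coverage was 12.5 and 15.9 in the WT leptotene pair, 34.2 and 32.3 in the KO leptotene pair, 8.39 and 13.3 in the WT zygotene pair, and 23.1 and 35.0 in the KO zygotene pair. All 4 KO libraries were above all 4 WT libraries, as for 11.5% of all genes. The rise averaged 1.26 ± 0.22 by coverage (adjusted p = 0.0064) and 1.11 ± 0.26 by named transcripts (adjusted p = 0.049). By named transcripts the Ccna2 call was lost without any 1 of the 8 libraries (adjusted p between 0.0757 and 0.138), and by coverage it held without each of them (between 0.00724 and 0.0268) and with the stages averaged first (0.0373). Stra8, the retinoic acid target that starts meiosis, was at 62.0 and 51.8 in the WT leptotene pair, 135 and 98.7 in the KO leptotene pair, 44.6 and 41.9 in the WT zygotene pair, and 85.0 and 109.6 in the KO zygotene pair, again with all 4 KO libraries above all 4 WT libraries. Its averaged fold change was 1.08 ± 0.17 by coverage (adjusted p = 0.0043) and 1.17 ± 0.29 by named transcripts (adjusted p = 0.055). The spermatogonial markers given above were higher in the same KO libraries, and their part in the rises of Ccna2 and Stra8 was not tested.

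In the group of S-adenosylmethionine supply 2 of 3 rose by coverage, where 8.18% of all genes were called higher. By named transcripts neither was called. Ahcy gave 1.12 by that measure (limma adjusted p = 0.091), and Mat2b passed in 0 of 23 settings. Ahcy, which clears the product that inhibits methyltransferases, went from 19.7 ± 3.36 in WT to 50.5 ± 13.5 in KO (SD, n = 4, log2 fold change 1.30 ± 0.22, adjusted p = 0.0062). Mat2b, the regulatory subunit of methionine adenosyltransferase, went from 15.1 ± 0.922 to 27.9 ± 5.05 (0.82 ± 0.18, adjusted p = 0.015). Mat2a, its catalytic partner and the most abundant of the 3, was at a coverage of 107 ± 26.8 in WT and 116 ± 26.3 in KO. Ahcy and Trmt112 have processed copies in the genome, so reads shared with those copies can add to or take from their values. The spermatogonial and later germ cell markers given above moved in the same libraries, and their part in these rises was not tested.

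Among the other groups, Trmt112, a cofactor of several RNA methyltransferases, was the only 1 of 5 RNA methyltransferase genes called, from 13.7 ± 4.09 in WT to 27.7 ± 5.20 in KO (SD, n = 4, 0.99 ± 0.25 by coverage, adjusted p = 0.024). Igf2bp1 and Igf2bp3, which encode mRNA-binding proteins that can stabilise m6A-marked RNA, changed in opposite directions. Igf2bp1 rose from 19.9 ± 3.39 to 35.2 ± 4.54 (0.80 ± 0.17, adjusted p = 0.0131) and Igf2bp3 fell from 13.9 ± 1.71 to 6.65 ± 1.20 (-0.97 ± 0.22, adjusted p = 0.0174). In their group 2 of 8 were thus called by coverage, beside 22.9% of all genes in either direction. By named transcripts Trmt112 and Igf2bp1 passed in 1 of 23 settings each, and Igf2bp3 in 0 of 23. With the stages of a genotype and replicate number averaged first, 3 of the 7 genes called by coverage passed, Ccna2, Stra8 and Ahcy, and Mat2b, Trmt112, Igf2bp1 and Igf2bp3 did not (adjusted p between 0.0611 and 0.0785). None of 5 other writer subunits was called, and the most abundant of these, Rbm15, was at a coverage of 42.2 ± 4.10 in WT and 61.2 ± 11.6 in KO (0.51 ± 0.18, adjusted p = 0.075), and it passed with the covariate for single-exon transcripts (adjusted p = 0.0182). Fto, the other eraser gene, was at a coverage of 33.8 ± 1.56 in WT and 32.1 ± 2.37 in KO and was not called. None of 5 deadenylation genes was called. Cnot1, the scaffold of the deadenylase that YTHDF2 recruits, was at 42.1 ± 7.65 in WT and 13.8 ± 16.3 in KO by named transcripts and did not pass (-2.07 ± 0.54, adjusted p = 0.062), and by coverage it was at 78.4 ± 9.09 and 77.5 ± 6.24.

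**Figure D5:**
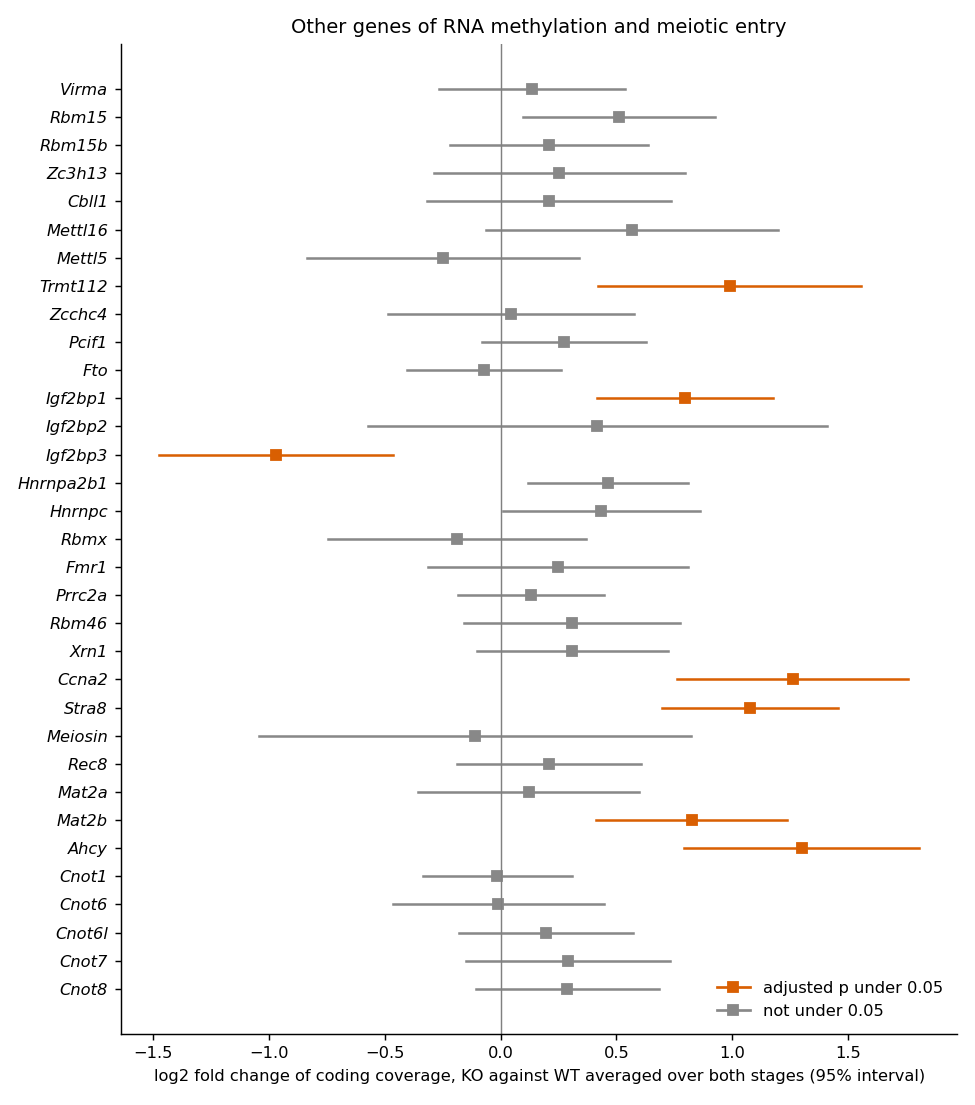
The log2 fold change of coding coverage in KO against WT, averaged over the stages, is drawn with its 95% interval for the 33 genes of the wider list. The 7 genes with an adjusted p under 0.05 are Ccna2, Stra8, Ahcy, Mat2b, Trmt112 and Igf2bp1 to the right of 0 and Igf2bp3 to the left.

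The genes most like Meioc across the 8 libraries were Sirt7 (Pearson r = 0.992), Bicd2 (0.969), Yes1 (0.969), Foxj3 (0.955) and Arfrp1 (0.952), among 5176 genes with a mean of at least 10 scaled TPM by named transcripts. For Ythdc2 they were Ep300 (0.974), Brca2 (0.963), Gpbp1 (0.960), Ckap5 (0.958) and Ppp4r3a (0.951). Meioc and Ythdc2 ran together with r = 0.865, which put Ythdc2 at rank 60 for Meioc and Meioc at rank 62 for Ythdc2. These 8 points share the scaling, the 4 groups and the kind of library, so the values describe likeness in these libraries and carry no test.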

How the data were processed

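Per the file headers, the authors assembled transcripts in each library with StringTie 2.1.2, guided by Ensembl release 89 and with unannotated transcripts allowed. No strand option is given, so overlapping and antisense genes are uncertain. Per the submitters' processing notes HISAT2 and DESeq2 were used with mm10, and per the labels RNA was extracted with TRIzol for a directional kit. The deposited values are, for each transcript, its TPM, its FPKM and its coverage. The files hold no read numbers, and counting error is left out.

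A gene's TPM was summed over the transcripts with its reference name, scaled by median-of-ratios factors, and filtered (TPM 1 or more in 2 or more libraries). A limma 3.58.1 model (R 4.3.3) of log2(scaled TPM + 1) held the 4 group means over 8 libraries, with an intensity trend and 4 residual degrees of freedom. A gene was called at a p under 0.05 after Benjamini-Hochberg adjustment over all genes. The coverage of coding bases, from GENCODE M21 gene models and chosen after the data had been seen, was treated alike. Ratios and shares were compared by exact permutation tests. Other steps used Python 3.11.15, scipy 1.17.1, numpy 2.4.6 and pandas 2.3.3. The model was tested on simulated data. The alternatives are pseudocounts of 0.1 and 5, other filters, TPM as deposited, quantile normalization, FPKM, unnamed transcripts added, only the libraries of a comparison, a replicate block, the stages averaged within genotype and replicate number, no trend, a covariate for unannotated single-exon transcripts, limma-voom, and leaving out each library.

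All 10 genes are named, with the called genes of the wider list and the most abundant gene where none was called in a group. Wtap exon 4, the motifs and Gm15262 were chosen after values were seen. The members, lists and tests were chosen with earlier results of these data known. The series design names 3 replications, whereas 2 libraries of each group are labelled.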

Additional observations from a re-analysis of the deposited data

How the results depend on the processing

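By named transcripts no alternative called any of the 10 genes, and by coverage of coding bases 1 was called averaged over the stages. That count of 1 became 2 with the covariate, 2 with a TPM of at least 5, and 0 unscaled, with the replicate block, with the block within genotype or with a pseudocount of 5, and it lay between 0 and 2 with a library left out. Of the wider list, the 1 call by named transcripts became 0 with a pseudocount of 0.1, no filter, TPM as deposited, no trend, the replicate block or the block within genotype. It became 2 with a pseudocount of 5 or with unnamed transcripts of the locus added, 3 with a TPM of at least 5, with unnamed transcripts added by overlap, with the covariate or with limma-voom, and 4 with FPKM. It lay between 0 and 1 with a library left out. The count of 7 by coverage was 9 with the covariate, which added Rbm15 and Hnrnpa2b1, 8 after quantile normalization, which added Hnrnpa2b1, 3 with the block within genotype, and between 3 (without WT zygotene replicate 2) and 7 with a library left out. Ccna2, Stra8 and Ahcy were called by coverage in all 16 settings. Over the settings the averaged estimate of KO against WT took both signs for Alkbh5, Mettl14, Wtap, Ythdc2 and Ythdf2 by named transcripts, and for Mettl3, Mettl14, Ythdc1 and Ythdf2 by coverage. Quantile normalization moved the median over all genes (log2 fold change) from -0.12 to 0.14 by named transcripts and from -0.08 to 0.12 by coverage.

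The split of all called genes, averaged over the stages, went from 1711 higher and 3082 lower by coverage to 768 and 3759 unscaled and 2516 and 2370 after quantile normalization, and by named transcripts from 273 and 1062 to 472 and 882. Of the 1335 genes called by named transcripts in all, the count was 788 with the replicate block, 852 with no filter, 2188 with unnamed transcripts of the locus added, 2033 with those added by overlap, and between 370 and 1147 with a library left out. Deviations of same-numbered libraries correlated at 0.21 between the WT stages, at 0.07 between the KO stages and between -0.14 and -0.08 across genotypes, so the numbers did not pair all groups, and pairing within a genotype is not excluded. A block within genotype, which averages the stages of a replicate number and was added after the data had been seen, called 0 genes of 16951 by named transcripts (3637 at an unadjusted p under 0.05) and 1875 of 20914 by coverage. Of the 10 genes, either block ended only the call of Ythdf1 (adjusted p = 0.0751 and 0.126). Using only the libraries of a comparison was not run for the averaged comparison or the interaction. With 2 libraries in a group, differences of the size seen here did not pass the test for most of these genes.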
